A study of Homo sapiens with 4 samples.

Results

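The collagen genes are the human autosomal protein-coding genes whose symbol is COL, a number, A and a number, and 42 of the 19229 autosomal protein-coding genes of the GENCODE annotation met this definition. The mark examined was H3K27ac, an acetylation of histone H3 that sits on active promoters and enhancers. It was profiled by ChIP-seq in 4 established carcinoma lines: OVCAR-3 and SKOV-3 from the ovary, DU-145 from the prostate and COLO-205 from the colon. The labels name no treatment or engineered allele, and the lines were grown in serum-supplemented media (RPMI media for COLO-205 and OVCAR-3, Eagle minimal essential medium for DU-145 and a McCoy medium for SKOV-3), with 1 library each. A difference between lines thus joins tissue, line, medium and library, which cannot be told apart. With no replicates, no test between lines was possible, and the intervals given cover counting error only.

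Collagens are secreted or membrane-bound proteins in which 3 chains wind into a triple helix. Fibrillar collagens form the fibres of skin, bone and tendon and are made mainly by fibroblasts, osteoblasts and chondrocytes, while network collagens form the sheets of basement membranes on which epithelial cells rest. Carcinoma cells are epithelial, so most of the collagen in a tumour comes from stromal cells, which cell lines in culture lack.

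A gene was called marked when a deposited peak overlapped the window of 1 kb either side of any of its annotated transcript starts, and its canonical start was called marked when a peak reached the same window around the start of its canonical transcript. A distal peak lay in or within 50 kb of the gene body and outside the 1-kb windows of all protein-coding starts. Peak strength is given as the −log10 q and the fold enrichment over local background of the authors' peak caller, both within one library, and as the number of tags piled up at the summit, which was recovered from these values and has an exact Poisson 95% interval. To compare lines, this pileup was also scaled to 1000000 tags of the library. The absence of a peak does not show that the mark is absent.

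The peak lists differed in size, from 14001 peaks in SKOV-3 to between 75468 and 85576 in the other lines, and the recovered numbers of tags ran from 22400000 in SKOV-3 to 36000000 in DU-145. Of 8 epithelial markers, all 8 were marked in OVCAR-3 and in COLO-205, 7 in DU-145 (without GRHL2) and 3 in SKOV-3 (KRT8, KRT18 and KRT19), where EPCAM, CDH1, ESRP1, GRHL2 and CLDN4 were not marked. Of 10 fibroblast markers, 5 were marked in COLO-205 (PDGFRB, THY1, FBN1, FBLN1 and SFRP2), 1 in DU-145 and 1 in OVCAR-3 (FBLN1 in both) and 2 in SKOV-3 (THY1 and FBLN1). DCN, LUM, PDGFRA, FAP and POSTN, the other members of that list, had no promoter peak in any line. Of the markers of the labelled tissue, 5 of 8 colon markers were marked in COLO-205 (CDX2, VIL1, GPA33, HNF4A and LGALS4), the prostate markers TMPRSS2 and STEAP2 were marked in DU-145 and KLK3 and KLK2 were not, and of 8 ovarian carcinoma markers 8 were marked in OVCAR-3 and 3 in SKOV-3 (PAX8, SOX17 and MECOM). Of the same 8, 5 were marked in COLO-205 and 5 in DU-145, and SOX17 was marked in the ovarian lines alone. Over all genes, 32.4% were marked in SKOV-3, 52.8% in COLO-205, 61.5% in OVCAR-3 and 62% in DU-145. Several marker shares lie near these, namely the fibroblast (50%) and colon markers (62.5%) of COLO-205, the ovarian markers of SKOV-3 (37.5%), DU-145 (62.5%) and COLO-205 (62.5%), and the epithelial markers of SKOV-3 (37.5%). Of the colon markers, 1 was marked in each of DU-145 and OVCAR-3 (12.5%) and none in SKOV-3, while TMPRSS2 was also marked in COLO-205 and OVCAR-3 and STEAP2 in OVCAR-3.

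Collagen genes were marked less often than the average gene in each line. In COLO-205, 21 of 42 were marked (50%), beside 52.8% of all genes. The count was 16 in OVCAR-3 (38.1%, beside 61.5%) and 15 in DU-145 (35.7%, beside 62%). The lowest count, 6, was that of SKOV-3 (14.3%, beside 32.4%), whose list is the shortest. With each list limited to its 14001 strongest peaks, SKOV-3 instead had the highest count, 6, against 5 in DU-145 (11.9%, beside 39.6% of all genes), 3 in COLO-205 (7.14%, beside 22.7%) and 2 in OVCAR-3 (4.76%, beside 39%). With all peaks, the COLO-205 share is close to its background and the shares of the other lines lie well below theirs. The difference in COLO-205 widened when only the canonical start counted, because 12 of its 21 marked members had a peak there (57.1%), beside 87.4% of all marked genes. At canonical starts, 12 members were marked in COLO-205 (28.6%, beside 46.2% of all genes), 10 in DU-145 (23.8%, beside 58.1%), 13 in OVCAR-3 (31%, beside 57.7%) and 5 in SKOV-3 (11.9%, beside 29.9%). Peaks with a −log10 q of at least 10 marked 12 members in OVCAR-3 (28.6%, beside 56.4% of all genes), 9 in DU-145 (21.4%, beside 53.3%), 6 in COLO-205 (14.3%, beside 32.8%) and 2 in SKOV-3 (4.76%, beside 22.9%), and all genes had the same order of lines.

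**Figure D1:**
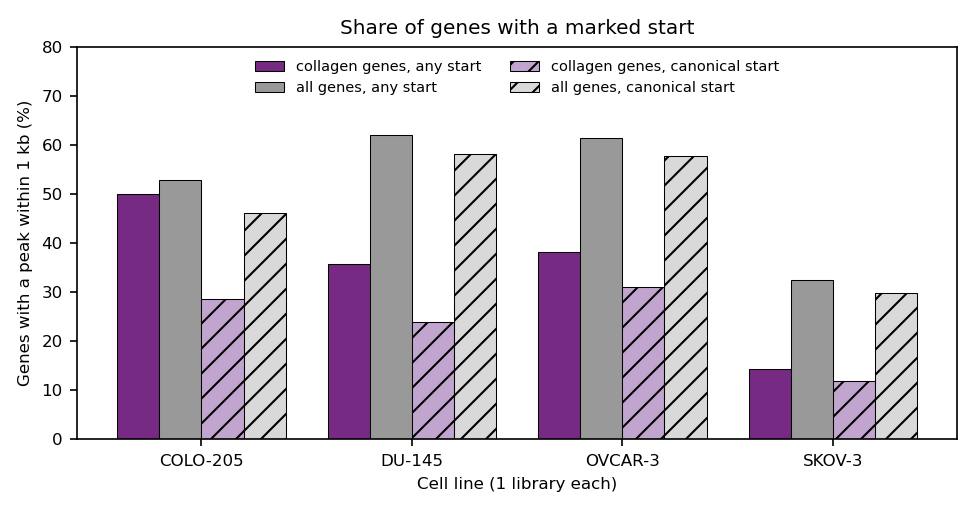
Share of genes with an H3K27ac peak within 1 kb of a transcript start in each line (percent, 1 library per line), for the 42 collagen genes (purple) and all 19229 autosomal protein-coding genes (grey), at any annotated start (solid) or at the canonical start (hatched). The collagen bar is the lower of each pair, with the smallest gap at any start in COLO-205 (50% against 52.8%).

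Where collagen promoters were marked, their median −log10 q was below that of all marked genes of the same line. The median −log10 q of the strongest promoter peak was 7.84 in the marked members of COLO-205 and 12.2 in all its marked genes. The same medians were 11.3 and 43.2 in OVCAR-3, 13.1 and 21.8 in DU-145, and 7.65 and 14 in SKOV-3. The median fold enrichments were level in SKOV-3 (5.26 and 5.25). Those of the members were slightly lower in COLO-205 (4.21 and 4.45) and DU-145 (4.31 and 4.68) and clearly lower in OVCAR-3 (5.02 and 7.41). Collagen genes are also long, with a median gene length of 133 kb against 27.6 kb over all genes, and have a median of 7.5 annotated starts against 5, so that the typical member had more windows in which a peak could fall.

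Few collagen genes were marked in most lines. Of the 42, 13 were marked in no line (31%, beside 23.4% of all genes), 9 in 1 line (21.4%, beside 15.2%), 13 in 2 lines (31%, beside 16.7%), 5 in 3 lines (11.9%, beside 18.7%) and 2 in all 4 lines (4.76%, beside 26%). The 2 marked in every line were COL6A2 and COL18A1, and in COLO-205 both were marked only at internal starts. At canonical starts 18 members were marked in no line (42.9%, beside 28.1% of all genes) and none in all 4 lines, beside 23.4% of all genes. The 4 members whose canonical start was marked in 3 lines (9.52%, beside 16.7%) were COL4A1, COL4A2, COL6A2 and COL18A1. Marked in COLO-205 alone were 6 members (14.3%, beside 6.41%), namely COL5A3, COL6A5, COL6A6, COL15A1, COL20A1 and COL21A1. COL28A1 was marked in DU-145 alone, COL9A2 in OVCAR-3 alone and COL3A1 in SKOV-3 alone, each 2.38% of members, beside 4.48%, 4.03% and 0.27% of all genes. The 2 ovarian lines shared 4 marked members, which is 25% of those of OVCAR-3 and 66.7% of those of SKOV-3 (50.3% and 95.4% over all genes). OVCAR-3 and DU-145 shared 10, which is 62.5% and 66.7% of their marked members (87.5% and 86.8% over all genes).

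**Figure D2:**
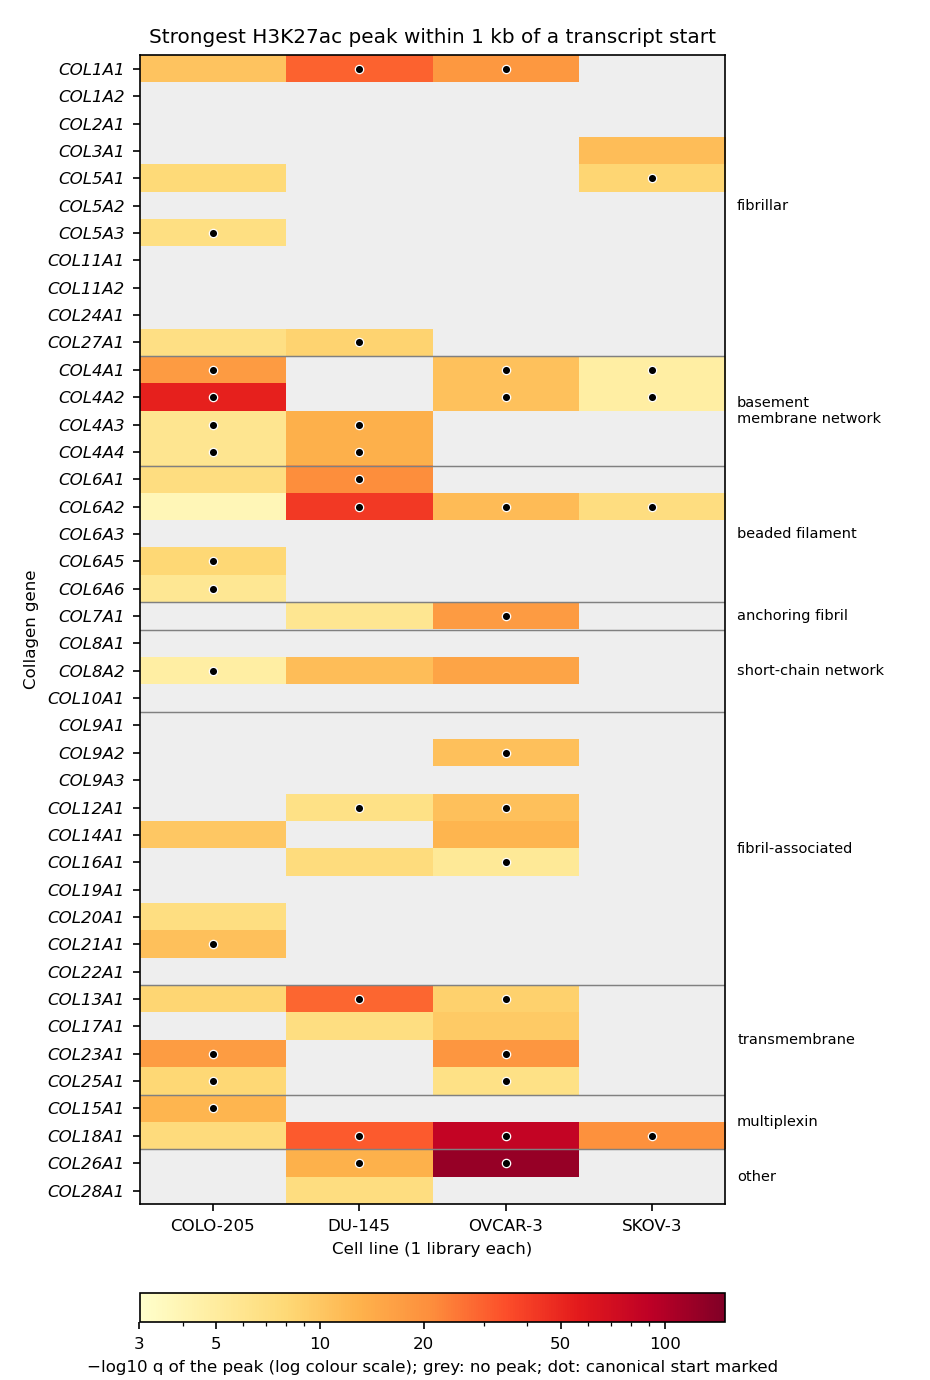
Strongest promoter peak of each of the 42 collagen genes (rows, grouped by structural class) in each line (columns), coloured by −log10 q on a log colour scale, with grey for no peak and a dot where the canonical start is marked. The darkest cells are COL26A1 and COL18A1 in OVCAR-3 (124 and 84.3), and 13 rows are grey throughout.

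The sequences just before the canonical start are shown for the members whose promoters the results turn on: COL26A1 and COL18A1 with the strongest peaks of OVCAR-3, COL6A2 with marking in all lines, COL23A1 with the same start marked in COLO-205 and OVCAR-3 and, for contrast, COL1A2, unmarked in every line. Each is the 150 bases that end at the base before the start, read from GRCh37 in the direction of transcription, and none overlaps an annotated exon. Capitals mark, on either strand, the TATA box letters TATAAA, the CCAAT box, the GC box core GGGCGG, the AP-1 site TGACTCA and the E-box CACCTG, which may overlap.
COL26A1, chr7:101006006-101006155, + strand: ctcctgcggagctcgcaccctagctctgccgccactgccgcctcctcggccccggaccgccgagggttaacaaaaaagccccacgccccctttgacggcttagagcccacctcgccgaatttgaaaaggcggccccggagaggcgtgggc
COL18A1, chr21:46824930-46825079, + strand: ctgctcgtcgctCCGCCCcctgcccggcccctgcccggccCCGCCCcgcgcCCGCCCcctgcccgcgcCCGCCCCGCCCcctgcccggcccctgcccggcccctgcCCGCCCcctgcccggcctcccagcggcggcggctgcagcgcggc
COL6A2, chr21:47517876-47518025, + strand: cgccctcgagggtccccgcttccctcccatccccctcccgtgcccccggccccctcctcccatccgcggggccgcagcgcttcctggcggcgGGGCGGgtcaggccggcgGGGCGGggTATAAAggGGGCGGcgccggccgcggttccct
COL23A1, chr5:178017395-178017544, − strand: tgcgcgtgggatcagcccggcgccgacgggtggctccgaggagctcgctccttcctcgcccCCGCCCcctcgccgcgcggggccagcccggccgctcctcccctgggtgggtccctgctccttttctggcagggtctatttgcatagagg
COL1A2, chr7:94024057-94024206, + strand: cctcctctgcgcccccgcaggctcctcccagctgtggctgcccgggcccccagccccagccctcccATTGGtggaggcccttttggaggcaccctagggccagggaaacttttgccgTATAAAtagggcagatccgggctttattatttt
The COL18A1 stretch was 90% G and C with 22 CpG dinucleotides and 6 matches to GGGCGG, and that of COL6A2 held 20 CpG, 3 matches to GGGCGG and 1 TATAAA. COL26A1 and COL23A1 held 15 and 16 CpG. The stretch of COL1A2 held 5 CpG with 1 TATAAA and 1 CCAAT.

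Across members, CpG-rich promoters were marked in more lines. In the 300 bases from 250 before to 50 from the canonical start, the median ratio of observed to expected CpG was 0.45 for the 18 members with this start marked in no line, 0.59 for the 12 marked in 1 line, 0.76 for the 8 marked in 2 and 0.95 for the 4 marked in 3. The medians over all genes were 0.28, 0.71, 0.82 and 0.86, and 0.90 for genes marked in 4 lines. The windows of COL4A1 and COL4A2 (1.02 and 1.00) overlap, so 2 of the 4 members marked in 3 lines are not independent. The windows of COL4A3 and COL4A4, 2 of the 8 members marked in 2 lines, overlap as well. The members with no marked canonical start ranged from 0.08 (COL17A1) to 0.96 (COL9A3), so a CpG-rich promoter could be unmarked. The lowest ratio among members with a canonical start marked in 2 lines was 0.40, in COL1A1. TATAAA, a core promoter element common in tissue-specific genes, was found in 8 of the 42 windows on either strand (19%, beside 9.83% of the 19225 promoters read), namely those of COL1A1, COL1A2, COL6A2, COL6A6, COL7A1, COL10A1, COL13A1 and COL17A1. GGGCGG, the core of the GC box, was found in 27 (64.3%, beside 61.3%), CCAAT in 13 (31%, beside 35.7%), CACCTG, an E-box, in 10 (23.8%, beside 20.6%) and TGACTCA, the AP-1 site, in 1, the window of COL6A1 (2.38%, beside 3.54%). These are letter matches and not binding sites.

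**Figure D3:**
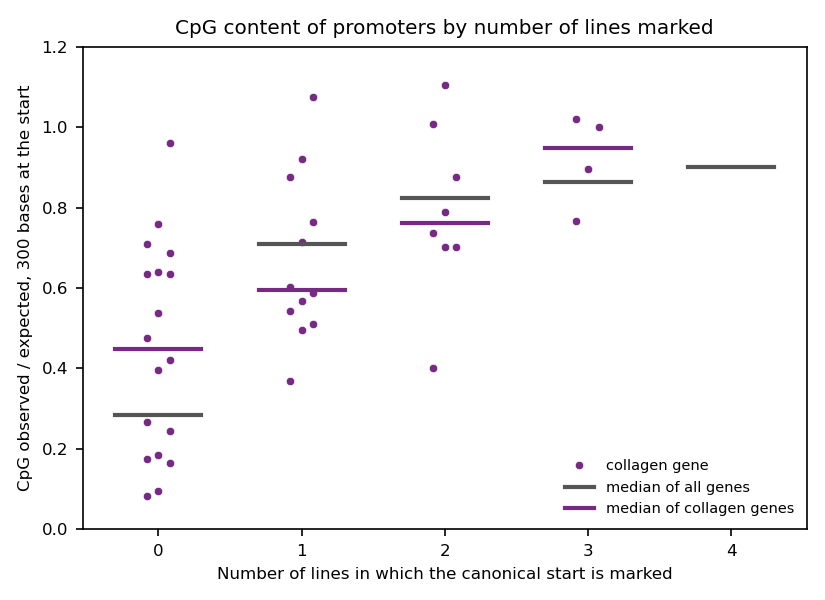
Ratio of observed to expected CpG in the 300 bases around the canonical start of each collagen gene (points, with purple bars for their medians) against the number of lines in which that start is marked, with grey bars for the medians of all autosomal protein-coding genes. The collagen medians run from 0.45 at 0 lines to 0.95 at 3 lines, and no collagen gene stands at 4 lines. The points of COL4A1 and COL4A2 come from overlapping windows, as do those of COL4A3 and COL4A4.

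Of the 11 fibrillar collagen genes, whose chains form the banded fibres of connective tissue, 5 were marked in at least 1 line and 6 in none (COL1A2, COL2A1, COL5A2, COL11A1, COL11A2 and COL24A1). Over all genes, 76.6% were marked in at least 1 line and 23.4% in none, which is the background of every class count below. COL1A1, the major chain of type I collagen, was marked in 3 lines. In DU-145 its peak reached the canonical start with a −log10 q of 29.3, a fold enrichment of 5.32 and a summit of 78 tags (61.7 to 97.3). In OVCAR-3 the peak at the canonical start had a −log10 q of 16.3, and the strongest peak (18.4) had its summit 1.64 kb past that start. In COLO-205 the strongest of 3 peaks (10.4) lay 9.79 kb inside the gene at an internal start, and the canonical start was unmarked. COL1A2, whose chain joins that of COL1A1 in type I collagen, had neither a promoter peak nor a distal peak in any line. The 2 genes of this heterotrimer therefore differed in marking in 3 of 4 lines, in COLO-205 at internal starts alone. The 500 kb either side of COL1A1 had 5.25, 4.57 and 7.19 times the median chromosome's peak density in COLO-205, DU-145 and OVCAR-3. Around COL1A2 the same lines had 0.07, 0.31 and 0.19 times. For SKOV-3, with both genes unmarked, the values were 6.30 and 0. The part of local peak density in this contrast was not tested. Chromosome 7, which holds COL1A2, COL26A1 and COL28A1, had only 65 peaks in SKOV-3, 0.08 times the density of that line's median chromosome, and its part in the unmarked state of these genes there was not tested.

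COL3A1, the type III chain of skin and vessel walls, was marked only in SKOV-3, by a peak 29.7 kb past its canonical start with a −log10 q of 11.2, a fold enrichment of 6.98 and 21 tags (13 to 32.1). COL5A1, which governs fibril diameter, had its canonical start marked in SKOV-3 (−log10 q 8.24, 21 tags) and an internal start 89.8 kb downstream marked in COLO-205 (7.84, 22 tags). COL5A3 was marked at its canonical start in COLO-205 alone (6.87). COL27A1, a cartilage collagen, was marked at the canonical start in DU-145 (8.55) and 144 kb past it in COLO-205 (6.84). The fibrillar class thus had 4 members marked in COLO-205 (beside 52.8% of all genes), of which 1 at the canonical start. It had 1 in OVCAR-3 (beside 61.5%), 2 in DU-145 (beside 62%) and 2 in SKOV-3 (beside 32.4%).

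All 4 autosomal basement membrane network genes, which encode chains of type IV collagen, were marked, as head-to-head pairs that share the region between their starts. COL4A1 and COL4A2, the chains found in nearly all basement membranes, were marked together in all lines but DU-145. The shared peak had a −log10 q of 12.3 in COLO-205, 10.8 in OVCAR-3 (38 tags, 26.9 to 52.2) and 4.68 in SKOV-3 (22 tags, 13.8 to 33.3), and DU-145 had no peak there. COL4A3 and COL4A4, known from the basement membranes of kidney and lung, were marked together by 1 peak in COLO-205 (5.91, 24 tags) and 1 in DU-145 (13.4, 41 tags), with none in OVCAR-3 or SKOV-3. The pairs thus had opposite patterns in DU-145, OVCAR-3 and SKOV-3, and each pair counts as 1 promoter region and not as 2.

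In COLO-205 the strongest promoter peaks of COL4A1 and COL4A2 were not at the shared region. That of COL4A2 lay at an internal start 197 kb past the canonical one, with a −log10 q of 52.6, a fold enrichment of 8.48 and 95 tags (76.9 to 116), higher than in 97.9% of marked genes. That of COL4A1 lay 142 kb past its canonical start (17.5, 32 tags). Chromosome 13, which holds both genes, had 12078 peaks in COLO-205, 3.74 times the density of the median chromosome, and the 500 kb either side of COL4A2 reached 13.6 times. In DU-145, OVCAR-3 and SKOV-3 chromosome 13 stood at 0.09, 0.12 and 0.26 times the median chromosome. The part of this density in the marking of both genes was not tested.

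Of the 5 beaded filament genes, the chains of type VI collagen around cells, 4 were marked and COL6A3 was not marked in any line. COL6A2 had its canonical start marked in DU-145, OVCAR-3 and SKOV-3. Its DU-145 peak was the strongest collagen promoter of that line, with a −log10 q of 42, a fold enrichment of 8.26 and 76 tags (59.9 to 95.1). Scaled to 1000000 tags this was 2.11 (1.66 to 2.64), against 0.88 (0.59 to 1.25) in OVCAR-3 and 0.80 (0.48 to 1.27) in SKOV-3. The DU-145 interval lay above both others, which overlapped. In COLO-205 COL6A2 had only a peak of −log10 q 3.80 at an internal start 23.3 kb downstream. COL6A1, its neighbour on chromosome 21, was marked at the canonical start in DU-145 (20.8, 69 tags) and at an internal start in COLO-205 (7.13). COL6A5 and COL6A6, adjacent on chromosome 3, were marked at their canonical starts in COLO-205 alone (8.07 and 5.68).

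COL7A1, the anchoring fibril collagen that fastens the epidermis to the dermis, was marked at its canonical start in OVCAR-3 by a peak of 2104 bp with a −log10 q of 17.5 and 47 tags (34.5 to 62.5). In DU-145 its single peak (5.87) lay 30.9 kb downstream near its 3′ end, within reach of a start of UCN2 as well. OVCAR-3 had 2.14 times the median chromosome's peak density on chromosome 3, which also holds the unmarked COL6A5, COL6A6 and COL8A1, and 8.10 times in the 500 kb either side of COL7A1. Among the 3 short-chain network genes, COL8A2, a chain of the corneal Descemet membrane, was marked at its canonical start in COLO-205 (4.72) and at an internal start 25.3 kb downstream in DU-145 (11.3) and 25.2 kb downstream in OVCAR-3 (15.6), which is the same start in both. COL8A1 and COL10A1, the latter a marker of hypertrophic cartilage, were unmarked.

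Of the 10 fibril-associated genes, whose proteins coat fibrils and bridge them to the matrix, 6 were marked in at least 1 line, beside 76.6% of all genes. COL9A1, COL9A3, COL19A1 and COL22A1 were marked in none. COL12A1 was marked at the canonical start in DU-145 (6.58) and OVCAR-3 (10.9). COL16A1 was marked in the same lines, at the canonical start in OVCAR-3 (5.40) and an internal one in DU-145 (7.28). COL14A1 was marked in COLO-205 (9.97) and OVCAR-3 (12.5) at the same start, 64.7 and 64.8 kb upstream of the canonical one. COL9A2, a cartilage chain, was marked in OVCAR-3 alone (10.9, 36 tags). COL21A1 (10.9) and COL20A1 (7.01) were marked in COLO-205 alone, the first at its canonical start. No gene of this class was marked in SKOV-3, beside 32.4% of all genes.

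All 4 transmembrane collagens, which span the cell membrane and can be shed, were marked in OVCAR-3 (beside 61.5% of all genes). In COLO-205 3 were marked (beside 52.8%), in DU-145 2 (beside 62%) and in SKOV-3 none (beside 32.4%). COL13A1, a component of cell-matrix junctions, had a DU-145 peak of 2335 bp at its canonical start with a −log10 q of 28.7 and 54 tags, with a scaled pileup between 1.13 and 1.96. The OVCAR-3 peak at this start was weaker (5.90, scaled pileup 0.56, 0.33 to 0.87), below the DU-145 interval, and COLO-205 had 5 peaks at internal starts alone, the strongest at 8.24. COL23A1 was marked at its canonical start in COLO-205 (17.1, fold enrichment 7.28, 32 tags) and OVCAR-3 (18.7, fold enrichment 7.25, 34 tags). The scaled pileups were 1.07 (0.73 to 1.52) and 0.99 (0.69 to 1.39), with overlapping intervals. COL25A1, found in amyloid plaques of the brain, was marked at its canonical start in the same lines (7.99 and 6.55). COL17A1, a hemidesmosome protein of epithelial cells, was marked only away from its canonical start, 28.9 kb past it in DU-145 (6.97) and 4.16 kb past it in OVCAR-3 (9.63).

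The multiplexins COL15A1 and COL18A1 encode proteoglycan collagens of the basement membrane zone, and endostatin is cut from the second. COL18A1 had its canonical start marked in 3 lines. The peak there had a −log10 q of 31.4 and 60 tags (45.8 to 77.2) in DU-145, 84.3 and 100 tags (81.4 to 122) in OVCAR-3 and 20.0 and 40 tags (28.6 to 54.5) in SKOV-3. It led the collagen promoters of SKOV-3. The scaled pileups were 1.67 (1.27 to 2.15), 2.92 (2.38 to 3.56) and 1.79 (1.28 to 2.43), so OVCAR-3 lay above DU-145 while its interval met that of SKOV-3. COLO-205 had no peak at this start and 2 at internal ones, the stronger 100 kb downstream (7.49, 22 tags). COL15A1 was marked in COLO-205 alone, at its canonical start (12.5, 31 tags).

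COL26A1, an extracellular matrix protein outside these classes, had the strongest promoter peak of any collagen gene in OVCAR-3. Its peak there of 1707 bp at the canonical start had a −log10 q of 124, a fold enrichment of 19.4 and 134 tags (112 to 159), and its −log10 q was higher than that of 88.8% of marked genes in the line. In DU-145 the peak there had a −log10 q of 13.1, a fold enrichment of 3.76 and 51 tags (38.0 to 67.1). The scaled pileup was 3.92 (3.28 to 4.64) in OVCAR-3 and 1.42 (1.05 to 1.86) in DU-145, with separate intervals, and COLO-205 and SKOV-3 had no peak. COL28A1, a collagen of peripheral nerve, was marked in DU-145 at an internal start (7.09, 19 tags).

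The share of collagen genes with a distal peak lay above that of all genes in OVCAR-3 and SKOV-3 and below it in DU-145 and COLO-205. The direction turned in 2 lines with the setting: that of COLO-205 within 20 kb (69% of members, beside 63.4%) and that of OVCAR-3 with equal numbers of peaks (16.7%, beside 19.2%). At least 1 distal peak was present for 31 members in COLO-205 (73.8%, beside 76.4% of all genes), 24 in DU-145 (57.1%, beside 66.3%), 29 in OVCAR-3 (69%, beside 60.7%) and 15 in SKOV-3 (35.7%, beside 22.5%). Their longer genes give a longer search window, with a median of 233 kb against 128 kb. Per 100 kb of window the median was 1.43 in COLO-205 (1.65 over all genes), 0.36 in DU-145 (1.28), 0.85 in OVCAR-3 (0.85) and, for SKOV-3, 0 (0). The collagen medians thus lay below the background in DU-145, slightly below it in COLO-205 and level with it in OVCAR-3. The means, which the genes with many peaks raise, were 5.74 in COLO-205 (3.39 over all genes), 1.4 in DU-145 (3.31), 2.32 in OVCAR-3 (3.10) and, for SKOV-3, 0.33 (0.36), so that in COLO-205 the mean lay above the background and the median below it.

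A few members held a large share of these peaks. In COLO-205, COL4A2 had 129, COL23A1 116 and COL4A1 106, together 59.1% of the 594 pairs of a member and a distal peak, and COL5A1 followed with 85. The 500 kb either side of these genes had 13.6, 5.98, 13.8 and 14.4 times the median chromosome's peak density of the line. COL4A1 and COL4A2 lie side by side, so some peaks counted for both. In DU-145, COL13A1 had 31, COL18A1 18 and COL23A1 13, together 42.8% of the pairs, and the density around COL13A1 was 7.21 times the median chromosome. In OVCAR-3, COL18A1 had 42, COL26A1 41 and COL7A1 23 of 240, together 44.2%. In SKOV-3, COL23A1 and COL18A1 had 7 each and COL5A1 5 of 34, together 55.9%. COL23A1 spans 353 kb, and it had 116 distal peaks in COLO-205 and 16 in OVCAR-3, where its promoter was marked, and 13 in DU-145 and 7 in SKOV-3, where it was not.

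**Figure D4:**
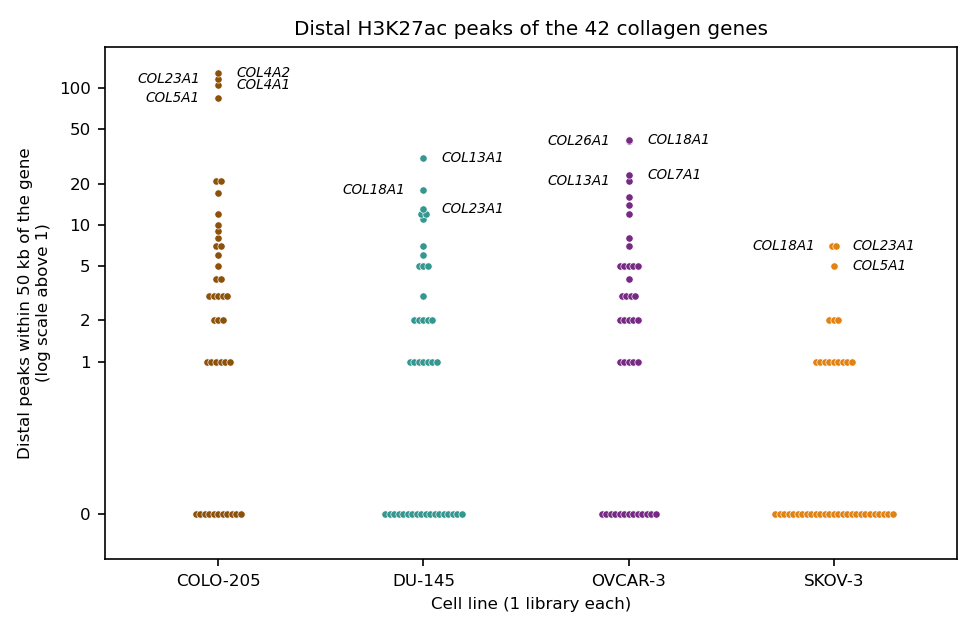
Number of distal H3K27ac peaks in or within 50 kb of each of the 42 collagen genes (points) in each line, on an axis that is logarithmic above 1, with the leading genes named. In COLO-205 4 genes stand apart between 85 and 129 peaks, and in SKOV-3 no gene exceeds 7.

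Distal regions were seldom shared between lines, near collagen genes as genome-wide. The distinct distal peaks near collagen genes numbered 551 in COLO-205, 238 in OVCAR-3, 143 in DU-145 and 31 in SKOV-3. Overlapping distal peaks of the 4 lines near collagen genes formed 869 regions, of which 799 had a peak in 1 line (91.9%, beside 88.1% of 158180 regions genome-wide), 66 in 2 lines (7.59%, beside 9.89%), 3 in 3 lines (0.345%, beside 1.59%) and 1 in all 4 (0.115%, beside 0.372%). These comparisons of regions and the 4 regions named here were chosen after their values were seen. The 3 regions of 3 lines lay in introns of COL23A1 (126 kb past the start) and COL13A1 (47.8 kb past the start), and over an unnamed lncRNA exon upstream of COL1A1 (9.21 to 9.44 kb).

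The region marked in all 4 lines lay upstream of COL18A1, at chr21:46783322-46787690 of hg19, in no annotated gene. The summits of its strongest peaks fell within 43 bp of each other, 40.6 kb before the canonical start. The −log10 q, which is not scaled between libraries, was 117 in OVCAR-3 (fold enrichment 14.8), followed by DU-145 (53.7, 8.21), SKOV-3 (49.4, 11.2) and COLO-205 (12.2, 4.43). In DU-145 and SKOV-3 it was the strongest distal peak of any collagen gene, and in DU-145, OVCAR-3 and SKOV-3 its −log10 q exceeded that of the COL18A1 promoter peak. In COLO-205 the canonical promoter was unmarked. The 200 bases around the summits, with the stretch that spans the 4 summits in capitals, are as follows on the + strand of GRCh37.
COL18A1 upstream region, chr21:46784352-46784551: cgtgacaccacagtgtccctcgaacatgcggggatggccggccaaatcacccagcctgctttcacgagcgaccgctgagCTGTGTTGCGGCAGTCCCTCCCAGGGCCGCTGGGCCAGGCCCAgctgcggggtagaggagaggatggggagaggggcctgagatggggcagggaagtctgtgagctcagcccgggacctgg
OVCAR-3 had a stronger distal peak still inside COL18A1, 4798 bp wide with its summit 5.18 kb past the start, a −log10 q of 153, a fold enrichment of 21.9 and 157 tags (the DU-145 peaks inside this interval reached a −log10 q of 5.29). In COL26A1, OVCAR-3 had a peak 132 kb past the start with a −log10 q of 89.8, and the same line had one of 78.4 in COL9A2, 4.49 kb past the start. The plot of 4 loci shows these peaks beside the promoters.

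**Figure D5:**
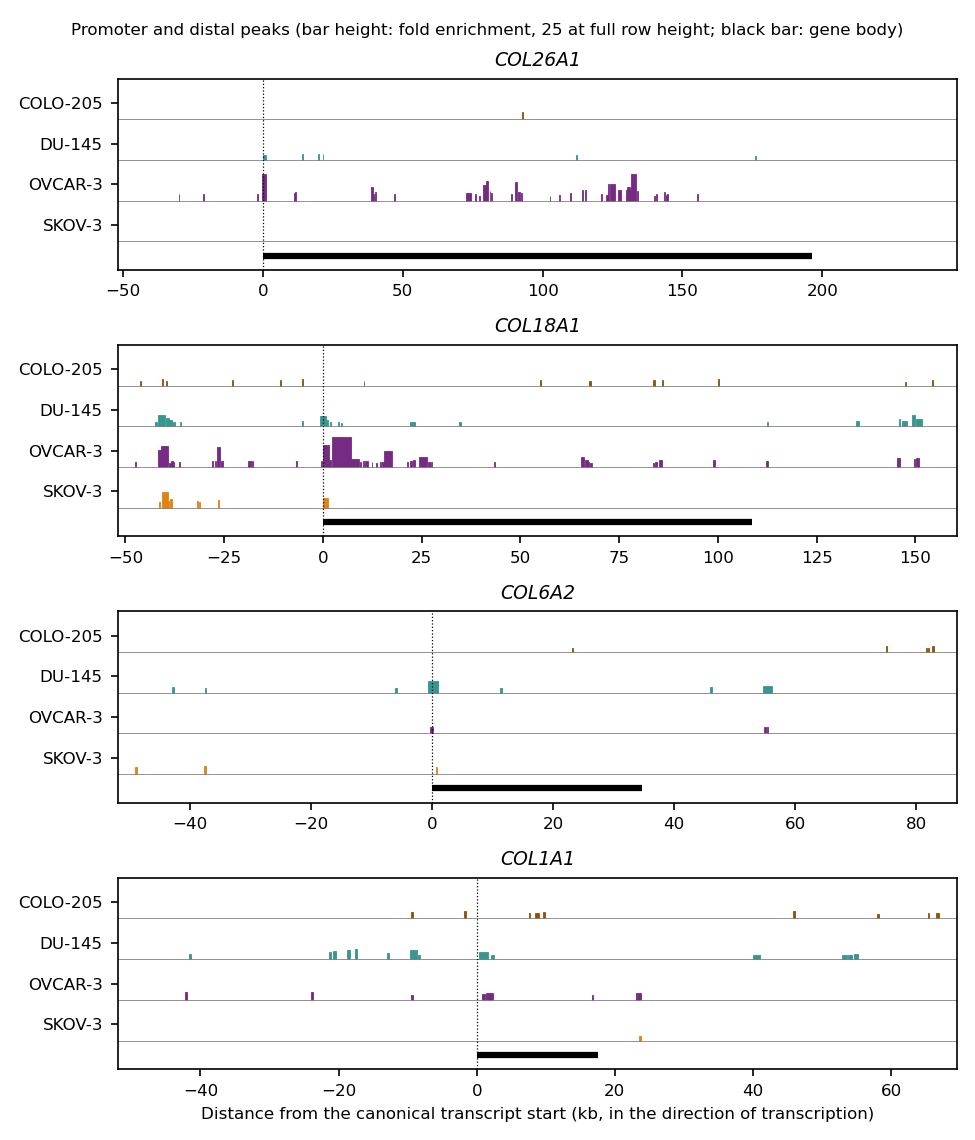
Promoter and distal peaks of COL26A1, COL18A1, COL6A2 and COL1A1 in each line against the distance from the canonical start in kb, in the direction of transcription, with bar height for fold enrichment (25 at full row height) and a black bar for the gene body. All 4 lines have a peak 40.6 kb before the COL18A1 start, and COL26A1 has 41 distal peaks in OVCAR-3 against 1 in COLO-205, 5 in DU-145 and none in SKOV-3.

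Genes that serve collagen production had a larger marked share than the collagens in DU-145, OVCAR-3 and SKOV-3. In COLO-205 the shares were close (51.6% and 50%). Of 31 genes of collagen synthesis and processing, 28 were marked in DU-145 (90.3%) and 23 in OVCAR-3 (74.2%), followed by COLO-205 with 16 (51.6%) and SKOV-3 with 9 (29%). Against the shares of all genes given above, this list stood higher in DU-145 and OVCAR-3 and slightly lower in COLO-205 and SKOV-3. Those unmarked in DU-145 were P3H3, COLGALT2 and TLL1, and those unmarked in OVCAR-3 were P4HA3, P3H3, COLGALT2, ADAMTS2, TLL2, PCOLCE, LOX and LOXL2. SERPINH1, the collagen chaperone, had a −log10 q of 315 in OVCAR-3, 46.4 in DU-145, 17.8 in SKOV-3 and 14.4 in COLO-205. Within 50 kb it had 86 distal peaks in OVCAR-3, 6 in DU-145, none in SKOV-3 and 1 in COLO-205. P4HB, a subunit of prolyl 4-hydroxylase, had a promoter −log10 q of 202, 49.5, 34.6 and 35.2 in the same order, and PLOD2, a lysyl hydroxylase, 70.5, 33.8, 7.99 and 8.40. MIA3, which loads procollagen into transport carriers, had 76.4 in OVCAR-3, 20.8 in DU-145 and 14.5 in COLO-205 with no peak in SKOV-3, and BMP1, which removes propeptides, had 25.6 in DU-145 and 67.9 in OVCAR-3 alone. The 3 chaperone and folding genes were all marked except in SKOV-3, where only SERPINH1 was. Of the 5 lysyl oxidases, which cross-link collagen, all 5 were marked in DU-145 and 3 in OVCAR-3, with LOXL1 and LOXL3 in COLO-205 and LOXL1 in SKOV-3. Many products of these 31 genes also serve other proteins.

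Receptors and proteases of collagen were marked less often than all genes in each line, at 35.3% in COLO-205 (beside 52.8%), 41.2% in DU-145 (beside 62%), 23.5% in OVCAR-3 (beside 61.5%) and 11.8% in SKOV-3 (beside 32.4%). Of 17, 6 were marked in COLO-205 (ITGA2, ITGB1, DDR1, MRC2, MMP9 and MMP14), 7 in DU-145 (ITGA2, ITGA10, ITGB1, DDR1, MRC2, MMP14 and CTSK), 4 in OVCAR-3 (ITGB1, DDR1, LAIR1 and MRC2) and 2 in SKOV-3 (ITGB1 and MRC2). ITGB1, the beta subunit of the collagen-binding integrins, was marked in all lines with a −log10 q of 174 in OVCAR-3, 68.4 in SKOV-3, 31.4 in COLO-205 and 30.3 in DU-145. MRC2, an endocytic collagen receptor, was also marked in all, from 7.28 in COLO-205 to 24.1 in DU-145. DDR1, a collagen-activated kinase of epithelial cells, had 138 in OVCAR-3, 18.7 in COLO-205 and 17.1 in DU-145 with no peak in SKOV-3, while DDR2, its mesenchymal relative, was unmarked in every line. LAIR1, an inhibitory receptor of leukocytes, had 66.7 in OVCAR-3 and no promoter peak elsewhere. In OVCAR-3 it also had 76 distal peaks within 50 kb, against 1 in COLO-205 and none in DU-145 or SKOV-3. The part of this local density in its marking was not tested. ITGA2 had 11.1 in COLO-205 and 29.6 in DU-145. The collagenases MMP1, MMP8 and MMP13 and the gelatinase MMP2 had no promoter peak in any line.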

How the data were processed

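H3K27ac ChIP-seq was analysed from the deposited peak lists of 4 lines, 1 library each, used as 1 group per line. The authors mapped reads to hg19 with Bowtie2 2.1.0 and called narrow peaks per library with MACS2 2.1.0.20150603 at a q-value below 0.001. The deposited score is 10 times the −log10 q as a whole number. The deposited fold enrichment compares the summit pileup with the local background, and the deposited −log10 p and −log10 q come from the authors' Poisson test, none of them scaled between libraries. The methods describe merging peaks less than 350 bp apart, which the lists do not show, so merging was an alternative.

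Promoters and distal peaks were scored by overlap of at least 1 bp against GENCODE lifted to GRCh37, the build of the lists. Summit pileups were recovered from the fold and −log10 p of at least 99.9% of peaks within 0.001. A stretch of 2.7e+09 genome positions then gave the number of tags. The scoring was tested on simulated peaks. Named genes are all marked members, the 3 with the strongest promoter or the most distal peaks in a line, those on chromosomes of raised peak density, and, of each other list, up to 5 genes by their values and by symbol those marked or unmarked where these are 8 or fewer. Members and lists were chosen with earlier results of these data known. No test was run, since there is 1 library per line. COL4A5 and COL4A6, on the X chromosome, were outside the autosomal rule. Some results are not reported here. The tools were pandas 2.3.3, numpy 2.4.6 and scipy 1.17.1 in Python 3.11.15, with pysam, samtools and matplotlib.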

Additional observations from a re-analysis of the deposited data

How the results depend on the processing

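Of 131 values recomputed under alternatives, 103 stayed within 1.5 times the value given and 28 did not. The share of marked collagen genes lay below that of all genes in all 42 combinations of a line and a setting tried. The canonical start alone, which like leaving out the SKOV-3 list was chosen after seeing the data, left 12 marked members in COLO-205 and 12 marked in 2 or more lines, against 21 and 20, and the most upstream protein-coding start left 11 and 12. With each list limited to its 14001 strongest peaks, 2 members were marked in OVCAR-3, 3 in COLO-205, 5 in DU-145 and still 6 in SKOV-3, 4 members in 2 or more lines (9.52%, beside 39.1% of all genes) and 31 in none (73.8%, beside 44.6%), and 5, 5 and 7 members had a distal peak in COLO-205 (11.9%, beside 16.5%), DU-145 (11.9%, beside 21.6%) and OVCAR-3 (16.7%, beside 19.2%), with medians per 100 kb of 0. SKOV-3 then had the most marked members, beside shares of all genes of 39% in OVCAR-3, 22.7% in COLO-205, 39.6% in DU-145 and 32.4% in SKOV-3. Requiring a −log10 q of at least 10 left 6 marked in COLO-205, 9 in DU-145 and 2 in SKOV-3, 8 in 2 or more lines (beside 51.2% of all genes) and 23 in none (beside 33.6%), 15 and 6 with a distal peak in COLO-205 (35.7%, beside 39.2%) and SKOV-3 (14.3%, beside 11.3%), and medians of 0 in COLO-205 and DU-145 and 0.34 in OVCAR-3. A distance of 20 kb gave 9 members with a distal peak in SKOV-3 (21.4%, beside 14.3%) and a median of 0 in DU-145, and 100 kb a median of 0.60 in DU-145. In these settings the number of peaks or the window was itself smaller or larger. No paired analysis was possible because each line has 1 library only, and no replicate could be left out. SKOV-3 had the fewest tags (22400000) and the fewest peaks (14001), and the part of depth in its unmarked genes was not tested.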
